A study of Mus musculus with 6 samples.

Results

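Eda2r, Tnfrsf12a and Map3k14 encode a pair of tumour necrosis factor (TNF) family receptors linked to muscle wasting and a kinase that acts after them, and Trp53, Cdkn1a, Mdm2, Ccng1, Bax and Zmat3 encode p53 and genes of its response. These 9 genes were selected from their measured values in injured and non-injured quadriceps together with what is known of their roles. The values below therefore describe them, and the tests and calls given for them are not evidence about them. All 9 are among the 20015 rows of the deposited table, matched by gene name, and all 9 passed the filter on low counts that left 16095 genes. RNA was sequenced from 3 quadriceps libraries of limbs with an injured anterior cruciate ligament, taken before reconstruction surgery, and from 3 quadriceps libraries of limbs without that injury. Each group has the letters A, B and C. The labels name no genotype, strain, sex, age, drug or time since injury for either group, and leave unsaid if each library is from its own animal or if a letter marks a shared animal. P-values therefore measure the spread between libraries, which may be technical. The organism label is Mus musculus, whereas the series text and the extraction protocol name human tissue. The rows carry mouse gene names, 96.6% with the coordinates of that gene on the mouse build mm10, so the values were read as mouse. The table's name calls the RNA myonuclear, while the protocol describes total RNA. Totals ran from 6.45 to 8.75 M counts per library.

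As background, EDA2R (also XEDAR) is the receptor for the A2 form of ectodysplasin, and TNFRSF12A (also Fn14) is the receptor for TWEAK, the product of Tnfsf12. Both recruit TRAF adaptors and can stabilise NIK, the kinase encoded by Map3k14, which phosphorylates IKKα (Chuk) and so releases the processed NFKB2 protein to act with RELB in the non-canonical NF-κB pathway. The EDA2R and NIK route and the TWEAK and Fn14 route have each been tied to loss of muscle mass in mice. p53 is held low by the ubiquitin ligase MDM2 and controlled largely at the level of protein, so that its activity is commonly read from its targets. EDA2R is itself a p53 target, and so are the genes for the cell cycle inhibitor p21 (Cdkn1a), cyclin G1 (Ccng1), the pore-forming apoptosis protein BAX, the RNA-binding protein ZMAT3 and MDM2.

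Because the genes are grouped here as p53 responders, the sequences before their start sites were searched for a p53 element. The windows come from RefSeq (build GRCm38.p6) and run from 250 bases before to 50 bases after an annotated start. They cover 8 of the 9 genes, with 2 windows for Cdkn1a; Zmat3 had none. The p53 element here is a single 10-base p53 half-site, not a full response element, searched on both strands. It was present in the windows of Trp53, Mdm2, Ccng1 and Bax and in the first window of Cdkn1a, and 8.36% of 32851 RefSeq mouse windows hold it. Cdkn1a alone among the 8 genes with a window had 2 such elements within 13 bases of each other, an arrangement found in 0.0731% of windows. That whole window is shown because it holds the pair, in capitals, at 73 to 64 and at 51 to 42 bases before the start (chr17:29090729-29091028, plus strand).
Cdkn1a: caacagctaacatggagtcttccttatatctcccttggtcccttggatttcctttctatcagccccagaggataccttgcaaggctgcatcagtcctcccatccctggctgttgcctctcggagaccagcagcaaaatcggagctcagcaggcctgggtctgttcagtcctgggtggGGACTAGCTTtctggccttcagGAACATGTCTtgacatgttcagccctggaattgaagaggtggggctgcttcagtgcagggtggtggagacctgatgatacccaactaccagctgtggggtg
For the other 4 genes the element is shown in capitals with 15 bases on either side, on the strand of the gene. It lies 75 to 66 bases before the start in Trp53 (chr11:69580269-69580308, plus strand), 186 to 177 in Mdm2 (chr10:117710920-117710959, minus strand), 185 to 176 in Ccng1 (chr11:40755447-40755486, minus strand) and 201 to 192 in Bax (chr7:45467075-45467114, minus strand).
Trp53: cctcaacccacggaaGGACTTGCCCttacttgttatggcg
Mdm2: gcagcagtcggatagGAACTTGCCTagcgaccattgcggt
Ccng1: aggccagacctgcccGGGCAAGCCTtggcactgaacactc
Bax: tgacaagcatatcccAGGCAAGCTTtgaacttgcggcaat
The Eda2r window is shown because Eda2r had the largest change of the 9 genes. It held no match to the p53 element, and its only match among the motifs searched was TATAAA, in capitals, at 58 to 53 bases before the start (chrX:97377160-97377459, minus strand).
Eda2r: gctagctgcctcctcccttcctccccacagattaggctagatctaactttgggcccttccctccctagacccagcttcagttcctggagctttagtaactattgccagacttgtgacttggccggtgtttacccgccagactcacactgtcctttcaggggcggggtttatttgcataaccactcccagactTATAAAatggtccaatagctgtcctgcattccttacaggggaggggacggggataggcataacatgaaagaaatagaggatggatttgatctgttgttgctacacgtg
TATAAA was also in the Trp53 window, but on the strand opposite to the gene, at 248 to 243 bases before the start. All motifs were searched on both strands, and TATAAA was in 13.6% of all windows. An NF-κB site was in the Trp53 window, spanning its start, and in 5.80% of all windows. TGANTCA, the AP-1 motif, was in none of the windows of the 8 genes covered and in 7.81% of all. The windows of Tnfrsf12a and Map3k14 and the second window of Cdkn1a matched none of the motifs. No match overlapped another motif. These are matches of letters in short windows and say nothing of binding.

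Eda2r was the only one of the 9 genes whose injured and non-injured libraries did not overlap, and its level was about 2-fold higher after injury. The gene lies on chromosome X of mm10 at 97333840 to 97377216, on the minus strand. Injured A, B and C held 45.8, 35.5 and 44.6 CPM (counts per M of the scaled library total), and their non-injured counterparts held 23.7, 14 and 24.9. Every injured library stood above every non-injured library, and non-injured B was the lowest of the 6. The means were 41.9 ± 5.64 CPM (SD, n = 3) in injured and 20.9 ± 5.98 CPM (SD, n = 3) in non-injured quadriceps, a log2 fold change of 1.01 ± 0.21 (SE) and a fold of 2.01. Libraries of the same letter differed by 0.94 (A), 1.32 (B) and 0.83 (C) on the log2 scale. Between 122 and 313 counts per library lie behind these values.

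A change of this size was rarer among genes with many counts than among all genes. Of all genes tested, 93.5% had a lower log2 fold change than Eda2r. Of the 6321 genes with a mean of at least 100 counts, 43 reached the log2 fold change of Eda2r or went past it, Eda2r included. Eda2r was picked from this same contrast, and the floor of 100 counts was set for this comparison alone. Its place among all genes is thus a description and not evidence. The plot of changes with their errors shows Eda2r apart from the other 8 genes and inside the middle 90% of all genes.

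Eda2r was the 1 of 9 genes called higher at an adjusted p under 0.05 (edgeR, Benjamini-Hochberg over all genes). Its edgeR adjusted p was 0.0454, close to that threshold, and 0 of 9 genes were called lower. Of all genes, 0.715% were called higher and 0.0311% lower. With the letter as a block the same counts of 1 and 0 were found among the 9 genes, against 3.21% and 2.65% of all genes. Groups that did not overlap were seen for 1 of 9 genes, higher after injury, against 11.9% of all genes higher and 9.57% lower. Since the genes were picked from this contrast, these counts are not evidence about them. The median log2 fold change of the 9 genes was 0.02, and that of all genes 0.00.

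**Figure D1:**
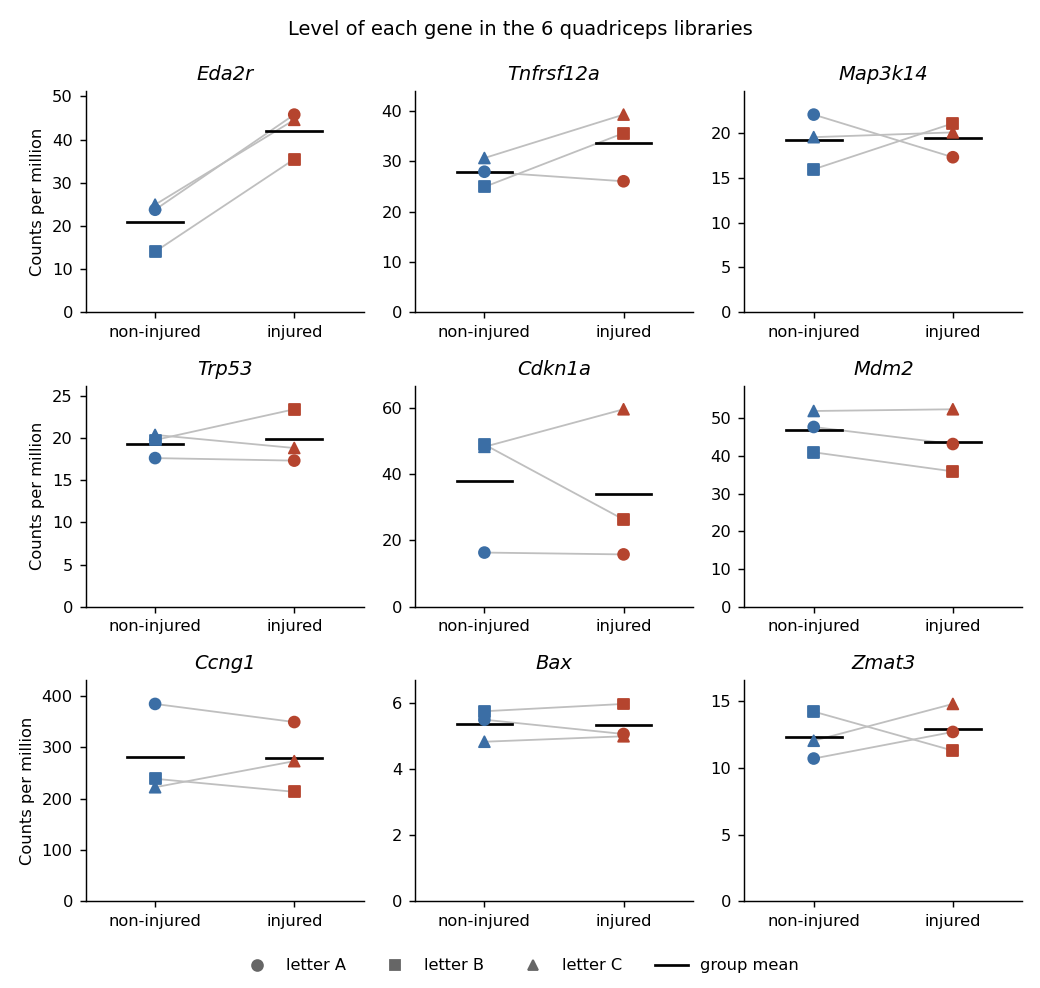
CPM of each of the 9 genes in the 3 non-injured and 3 injured libraries; symbols mark the letters, grey lines join libraries of the same letter and bars mark group means. Eda2r is the only panel in which the groups do not overlap, with 14 to 24.9 CPM in non-injured and 35.5 to 45.8 CPM in injured libraries.

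The place of Eda2r among the 9 genes depended on the group. Per kilobase of annotated exon, the scale used to compare levels between genes, Eda2r stood at 3.54 ± 1.02 CPM per kb in non-injured quadriceps, below Trp53 at 4.75 ± 0.36, and at 7.12 ± 0.96 in injured quadriceps, above Trp53 at 4.90 ± 0.78 (SD, n = 3 each). In neither group did the libraries of Eda2r and Trp53 overlap, whereas those of Eda2r and Mdm2 overlapped in injured quadriceps. The other genes kept their order. Ccng1 was highest, at 80.2 ± 25.4 CPM per kb in non-injured and 79.3 ± 19.4 in injured quadriceps. Tnfrsf12a followed at 14.4 ± 1.49 and 17.4 ± 3.55, Cdkn1a at 10.6 ± 5.24 and 9.53 ± 6.43, and Mdm2 at 9.22 ± 1.09 and 8.62 ± 1.63. The levels of Tnfrsf12a and Cdkn1a, and those of Cdkn1a and Mdm2, overlapped between libraries. Bax, at 3.39 ± 0.30 and 3.38 ± 0.35, overlapped Map3k14, at 2.93 ± 0.47 and 2.98 ± 0.30, in both groups, and overlapped Eda2r in non-injured quadriceps alone. Zmat3 was lowest, at 1.08 ± 0.16 and 1.13 ± 0.15. These levels assume that the whole annotated exon length is transcribed.

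Macrophage and cell division markers also stood higher in the libraries in which Eda2r was high. The 10 macrophage markers tested summed to 99.5 to 171 CPM in injured and 43.9 to 51.0 CPM in non-injured libraries. Within the groups the order was not that of Eda2r throughout. Injured A was highest for both, whereas non-injured C had the lowest macrophage sum (43.9 CPM) and the highest non-injured Eda2r (24.9 CPM). Of these markers 4 were called higher, Lyz2, Itgam, C1qb and Mrc1, and 7 with the block. Of all genes, 0.715% were called higher without the block and 3.21% with it. Aif1, a further macrophage marker, was not among the rows, and Cd68 had too few counts to be tested. The 6 cell division markers tested summed to 23.8 to 40.8 CPM in injured and 9.91 to 10.7 CPM in non-injured libraries, and 1 of them, Mki67, was called, against 3 with the block. Their sum was highest in injured B (40.8 CPM), the injured library with the lowest Eda2r (35.5 CPM). Muscle fibre markers, 12 in number, summed to 195040 to 203550 CPM in injured and 211580 to 218190 CPM in non-injured libraries, with none called. Ttn made up most of each sum, with means of 134030 CPM in injured and 143550 CPM in non-injured libraries. Of the 12, 4 had a positive log2 fold change, and the median was -0.06. Satellite cell markers summed to 87.1 to 123 CPM in injured and 85.7 to 122 CPM in non-injured libraries. The part of these cells in the Eda2r difference was not tested. In bulk RNA, a change in the number of cells of a type and a change in RNA per cell cannot be told apart.

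Tnfrsf12a, the TWEAK receptor, differed between the groups by less than the SD of its injured libraries, though by more than that of its non-injured libraries. It lies on chromosome 17 at 23675445 to 23677468, minus strand. Injured A, B and C held 26.0, 35.6 and 39.3 CPM, and their non-injured counterparts held 27.9, 24.9 and 30.7. Injured B and C were above all non-injured libraries, and injured A lay among them. The means were 33.6 ± 6.85 and 27.8 ± 2.87 CPM (SD, n = 3), with a log2 fold change of 0.28 ± 0.17 (SE). The value ran from 0.12 without injured C to 0.43 with both letter A libraries left out.

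The ligands of these receptors were near the floor of the table. Of 18 TNF-family ligands listed, 6 were among the rows and 5 could be tested, with 0 called in either direction, 0 at an unadjusted p under 0.05 in edgeR, 0 with the letter as block, 0 with DESeq2, 0 with limma-voom, and a median log2 fold change of 0.23. Of all 16095 genes, 2471 had an unadjusted p under 0.05. Eda, which encodes ectodysplasin, had a mean of 10.2 counts per library and 1.49 ± 1.0 CPM in injured against 1.26 ± 0.71 CPM in non-injured quadriceps (log2 fold change 0.23 ± 0.63 SE). A count per gene does not separate its A1 and A2 forms. Tnfsf12, which encodes TWEAK, had 1.91 ± 0.98 and 1.82 ± 1.1 CPM (0.07 ± 0.56). Tnfsf10, which encodes TRAIL, had 4.29 ± 0.96 and 5.26 ± 1.96 CPM (-0.29 ± 0.35). At 10 to 35 counts per library only large differences could have been seen in these genes.

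Among 15 other TNF-family receptors tested, none was called without the block (4 had an unadjusted p under 0.05 in edgeR, all with higher injured means, and DESeq2 and limma-voom each called 0), and the median log2 fold change was 0.40. With the letter as block 2 were called higher. Tnfrsf1b, the second TNF receptor, held 5.97, 6.42 and 3.99 CPM in injured A, B and C and 1.79, 1.84 and 2.81 CPM in non-injured A, B and C, and the groups did not overlap (log2 fold change 1.34 ± 0.36 SE, edgeR adjusted p = 0.0996, and 0.0453 with the block). Tnfrsf23, a mouse decoy receptor for TRAIL, had 11.3 ± 3.49 against 5.82 ± 3.29 CPM, with groups that overlapped (0.97 ± 0.36, edgeR adjusted p = 0.232, and 0.0263 with the block). Edar, the receptor for the A1 form of ectodysplasin, had 1.38 ± 0.93 against 0.99 ± 0.75 CPM (0.48 ± 0.76). The difference between Eda2r and these receptors was not tested.

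Map3k14, the gene for NIK, differed between the groups by less than its spread. It lies on chromosome 11 at 103219762 to 103267472, minus strand, and shares 135 bp of exon with 1700028N14Rik on the same strand, so that reads in that stretch can belong to either. Injured libraries held 17.3, 21.1 and 20.1 CPM, and non-injured libraries 22.1, 16 and 19.5 CPM, in the order A, B, C. The ranges overlapped, and injured A was below non-injured A while injured B was above non-injured B. The means were 19.5 ± 1.96 and 19.2 ± 3.07 CPM (SD, n = 3; log2 fold change 0.02 ± 0.18 SE). Its sign was kept in 10 of 15 other ways of computing it.

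All 29 listed adaptors and NF-κB proteins were tested, and the edgeR fit on group alone, with all libraries and TMM scaling, called none (8 had an unadjusted p under 0.05, 7 of them higher after injury). DESeq2 called 2 higher, Nfkb2 and Nfkbie, and limma-voom 0. In edgeR, upper quartile scaling called Nfkbie (adjusted p = 0.0495), and leaving out both letter A libraries called Nfkb2 (adjusted p = 0.0447). The median log2 fold change was 0.05. With the letter as block 3 were called higher, which are the DNA-binding pair of the non-canonical pathway, Nfkb2 and Relb, and the inhibitor gene Nfkbie. Nfkb2 held 12.4, 17.7 and 15.8 CPM in injured A, B and C and 5.10, 7.12 and 9.50 CPM in non-injured A, B and C. Each injured library was above all 3 non-injured ones (log2 fold change 1.08 ± 0.25 SE, edgeR adjusted p = 0.0681, 0.00544 with the block, and 0.0211 with DESeq2). Relb held 7.96, 14.8 and 13 CPM in injured and 4.34, 6.89 and 7.10 CPM in non-injured libraries, again without overlap (0.96 ± 0.28, edgeR adjusted p = 0.128, and 0.0162 with the block). Nfkbie, named after its values were seen, had a mean of 10.7 counts, with 2.67 ± 0.81 against 0.43 ± 0.22 CPM (2.62 ± 0.57, edgeR adjusted p = 0.0584, 0.0179 with the block, and 0.0222 with DESeq2). Nfkb2 and Relb are also used by other receptors and are expressed in immune cells, and the macrophage marker sums given above moved the same way. The part of those cells in these values was not tested.

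No adaptor nearer to the receptors was called with or without the block, and their values ranged widely. Traf1 (log2 fold change 1.64 ± 0.56 SE, edgeR adjusted p = 0.191) and Edaradd, the adaptor of EDAR (1.28 ± 0.54, edgeR adjusted p = 0.283), had larger values than Nfkb2 and groups that did not overlap, at means of 13.2 and 11.2 counts per library. Ripk1, a kinase of TNF receptor complexes, had 11.7 ± 1.55 against 7.54 ± 1.84 CPM, also without overlap (0.64 ± 0.24, edgeR adjusted p = 0.226), and Traf4 had 5.81 ± 2.7 against 3.21 ± 1.6 CPM, with overlap (0.84 ± 0.43). These 4 were named after their values were seen. Traf2 had 26.3 ± 2.47 against 21.5 ± 1.33 CPM with no overlap (log2 fold change 0.29 ± 0.15 SE). Birc2, which encodes an inhibitor-of-apoptosis protein that takes part in the turnover of NIK, had 24.9 ± 1.59 against 33 ± 4.13 CPM, also without overlap (-0.40 ± 0.15, edgeR adjusted p = 0.237). Its relative Birc3 had 7.20 ± 0.86 against 7.46 ± 1.42 CPM (-0.05 ± 0.25). Traf3, the adaptor that brings NIK to its degradation, was level at 13.8 ± 3.64 and 13.9 ± 1.77 CPM. Traf6, an adaptor of EDA2R, had 16.7 ± 2.58 against 18.8 ± 1.34 CPM (-0.16 ± 0.18), and Chuk 52.0 ± 4.25 against 57.2 ± 4.35 CPM (-0.14 ± 0.14).

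Trp53 mRNA differed between the groups by less than its spread. The gene lies on chromosome 11 at 69580359 to 69591873, plus strand. Injured A, B and C held 17.3, 23.4 and 18.8 CPM and non-injured libraries 17.6, 19.7 and 20.3 CPM. The ranges overlapped, with injured A the lowest and injured B the highest of the 6. The means were 19.8 ± 3.17 and 19.2 ± 1.44 CPM (SD, n = 3; log2 fold change 0.04 ± 0.17 SE). Counts of mRNA do not measure the p53 protein.

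Mdm2, at once a target and the main brake of p53, likewise differed by less than its spread. It lies on chromosome 10 at 117688875 to 117710758, minus strand. Injured libraries held 43.2, 35.9 and 52.4 CPM and non-injured libraries 47.7, 41.0 and 51.9 CPM, in the order A, B, C. Library B was lowest and library C highest in both groups. The means were 43.8 ± 8.26 and 46.9 ± 5.53 CPM (SD, n = 3; log2 fold change -0.10 ± 0.17 SE). Of 16 other p53 regulators tested, none was called with or without the block or by DESeq2 or limma-voom, 2 had an unadjusted p under 0.05 in edgeR, and the median log2 fold change was -0.12. These 2 were Atr, a DNA damage kinase (30.4 ± 1.6 against 41.1 ± 5.06 CPM, -0.43 ± 0.15), and Sirt1, a deacetylase (14.2 ± 2.41 against 20.3 ± 1.93 CPM, -0.51 ± 0.18). Mdm4, the partner of MDM2, had 122 ± 10.3 against 140 ± 6.58 CPM (-0.20 ± 0.13). The libraries of Atr, Sirt1 and Mdm4 did not overlap between groups.

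**Figure D2:**
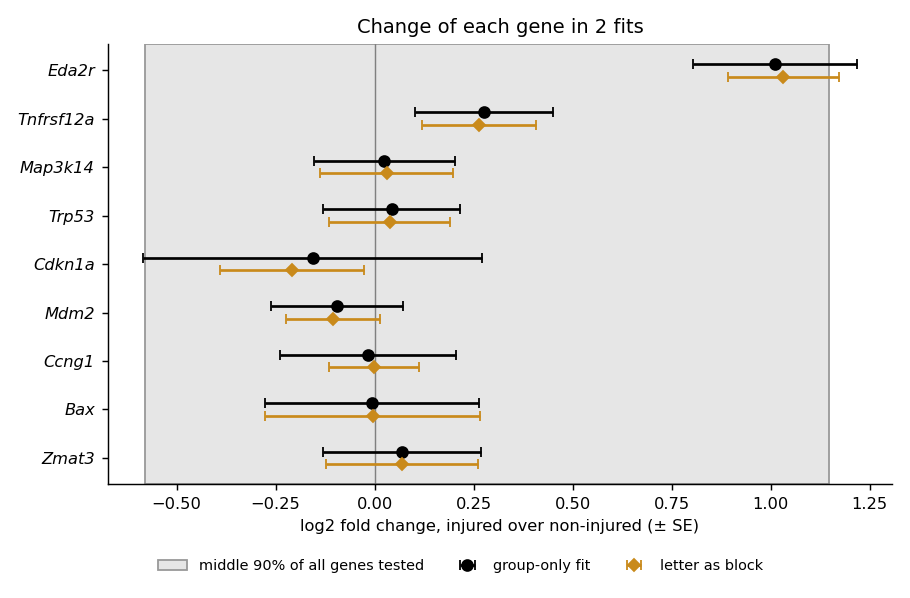
Log2 fold change of each of the 9 genes, injured over non-injured, with its SE, in the fit on group alone and in the fit with the letter as block; the grey band holds the middle 90% of the 16095 genes tested. Eda2r lies at 1.01 and 1.03 in these fits, and each of the other genes lies between -0.21 and 0.28.

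The 4 other p53 targets chosen, Cdkn1a, Ccng1, Bax and Zmat3, had group means that differed by less than the spread between libraries. Cdkn1a, on chromosome 17 at 29090976 to 29100727, plus strand, varied most. Injured A, B and C held 15.8, 26.3 and 59.5 CPM, and their non-injured counterparts held 16.3, 48.9 and 48.2 CPM. Both letter A libraries were low, injured C was highest, and the groups overlapped over nearly their whole range. The means were 33.9 ± 22.8 and 37.8 ± 18.6 CPM (SD, n = 3; log2 fold change -0.16 ± 0.43 SE), with a coefficient of variation of 67.4% in injured and 49.2% in non-injured libraries. The log2 fold change was -0.88 without injured C and 0.17 without injured A, so that single libraries set its sign. An annotated gene on the opposite strand, AC167363.2, shares 273 bp of exon with Cdkn1a. Whether the counting used strand is not given in the sources used here.

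Ccng1, on chromosome 11 at 40748552 to 40755311, minus strand, was the most abundant of the 9 genes. Injured A, B and C held 348.95, 213 and 273 CPM, and their non-injured counterparts held 384, 239 and 222 CPM. Here letter A was the highest in both groups. The means were 278 ± 68.0 and 282 ± 89.2 CPM (SD, n = 3; log2 fold change -0.02 ± 0.22 SE). Cdkn1a and Ccng1 thus differed between letters in opposite directions. Library A stood below the mean of B and C for Cdkn1a by a log2 difference of -1.31 in injured and -1.56 in non-injured quadriceps, and above it for Ccng1 by 0.53 and 0.74. What the letters stand for is not given, and the letter difference was noticed in these data and not tested.

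Bax, on chromosome 7 at 45461697 to 45466898, minus strand, had the fewest counts of the 9 genes, 33 to 50 per library. Injured A, B and C held 5.05, 5.96 and 4.98 CPM and non-injured libraries 5.48, 5.74 and 4.82 CPM. The groups overlapped, and the means were 5.33 ± 0.55 and 5.35 ± 0.48 CPM (SD, n = 3; log2 fold change -0.01 ± 0.27 SE). Bax shares 192 bp of exon with Gm45808 on the same strand, and it and Cdkn1a are the 2 of the 9 genes with fractional values in the table. Zmat3, on chromosome 3 at 32334792 to 32366014, minus strand, held 12.7, 11.3 and 14.8 CPM in injured and 10.7, 14.2 and 12 CPM in non-injured A, B and C. These groups overlapped too, with means of 12.9 ± 1.76 and 12.3 ± 1.78 CPM (SD, n = 3; 0.07 ± 0.20 SE).

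Other p53 targets came from a list of known targets. Of 30 listed, 27 were among the rows and 22 were tested, and the edgeR fit on group alone, with all libraries, called none (6 had an unadjusted p under 0.05, 4 higher and 2 lower). DESeq2 called 1 higher, Psrc1, and limma-voom 0, with a median log2 fold change of 0.04. With the letter as block 2 were called higher and 1 lower. Plk2, a kinase, held 4.29, 6.42 and 5.70 CPM in injured and 1.02, 3.44 and 1.20 CPM in non-injured libraries, without overlap (log2 fold change 1.5 ± 0.45 SE, edgeR adjusted p = 0.137, and 0.0229 with the block). Psrc1, named after its values were seen, had a mean of 8.83 counts (2.5 ± 0.56, edgeR adjusted p = 0.0618, 0.0273 with the block, and 0.0494 with DESeq2); its protein acts on the mitotic spindle. Ddit4, an inhibitor of the growth kinase mTORC1 and also named after its values were seen, held 3.22, 15.7 and 23.4 CPM in injured and 2.04, 37.2 and 44.8 CPM in non-injured libraries. Its letter A libraries were the lowest of both groups, as for Cdkn1a (-0.98 ± 0.72, edgeR adjusted p = 0.558, 0.0283 with the block, and 0.0131 with both letter A libraries left out).

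Further targets did not pass the test in either fit. Gadd45a, a stress gene that also rises in denervated muscle, had 23.2 ± 6.25 against 16.1 ± 2.57 CPM (log2 fold change 0.52 ± 0.21 SE). Sesn1, which encodes a stress sensor that restrains mTORC1, had 36.8 ± 12.4 against 51.4 ± 14.2 CPM (-0.48 ± 0.24). Rrm2b, a ribonucleotide reductase subunit, had 14.1 ± 1.45 against 19.4 ± 1.43 CPM, without overlap (-0.45 ± 0.17). Targets of p53 thus had values on either side of 0. Trp53inp1 had 21.2 ± 2.30 against 25.4 ± 4.44 CPM (-0.26 ± 0.17), and Phlda3, an inhibitor of AKT, 85.3 ± 6.15 against 83.3 ± 9.49 CPM (0.03 ± 0.14). Gdf15, a secreted stress hormone, had a mean of 5.50 counts and was not tested.

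Other cyclin-dependent kinase inhibitors and genes of the BCL2 and caspase pathway gave no call by edgeR, with or without the block, by DESeq2 or by limma-voom. These 2 lists are general and were kept apart from the list of p53 targets above. In all, 5 cyclin-dependent kinase inhibitors were tested besides Cdkn1a, and none had an unadjusted p under 0.05 in edgeR, with a median log2 fold change of 0.25. Cdkn1b had 24.4 ± 1.57 against 28.7 ± 4.04 CPM, and Cdkn2c 4.63 ± 1.09 against 3.24 ± 0.96 CPM. Besides Bax, 10 genes of the BCL2 and caspase pathway were tested, and none had an unadjusted p under 0.05, with a median of 0.07. Casp9, the initiator caspase, had 4.95 ± 2.21 against 2.83 ± 0.99 CPM (0.80 ± 0.41 SE), and Bad, a pro-apoptotic relative of BAX, 9.42 ± 0.50 against 7.18 ± 0.86 CPM, without overlap (0.39 ± 0.22).

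Ubiquitin ligases that mark muscle atrophy were set beside the receptors because wasting through these receptors is usually read from them. All 10 were tested, and none was called in the fit on group alone with all libraries (2 had an unadjusted p under 0.05 in edgeR, 1 in each direction, and DESeq2 and limma-voom each called 0), with a median log2 fold change of -0.08. Trim63, the gene for MuRF1, held 285, 516 and 692 CPM in injured and 308, 481 and 552 CPM in non-injured A, B and C (0.15 ± 0.28 SE). Fbxo32, the gene for atrogin-1, held 399, 709 and 800 CPM in injured and 582, 599 and 690 CPM in non-injured libraries (0.03 ± 0.21). Letter A was lowest in both groups for both genes, and the groups overlapped. Nedd4l had 63.5 ± 9.13 against 89.1 ± 8.73 CPM without overlap, and was called lower with the letter as block (-0.49 ± 0.15, edgeR adjusted p = 0.150, and 0.0157 with the block). Fbxo31 had 118 ± 16.9 against 88.5 ± 6.76 CPM, also without overlap (0.42 ± 0.15, edgeR adjusted p = 0.205), and was called higher with both letter A libraries left out.

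Genes that mark denervated fibres were the list of this pathway set with a call in both fits. Of 11 tested 1 was called higher, and the median log2 fold change was 0.63. In edgeR 7 had an unadjusted p under 0.05, all of them higher after injury. Of all 16095 genes, 0.715% were called higher, and 1488 had such a p with a positive log2 fold change. Gadd45a is counted both here and among the other p53 targets. This list, like the others, was chosen with earlier results of these data known, so these counts are not evidence about it. Runx1, a transcription factor that denervation induces in muscle fibres, held 31.1, 28.0 and 19.2 CPM in injured and 13.9, 7.12 and 11.2 CPM in non-injured libraries, without overlap (1.28 ± 0.25 SE, edgeR adjusted p = 0.0370, and 0.00150 with the block). Its log2 fold change stayed between 1.03 and 1.49 when single libraries were left out, and of these 6 fits only that without non-injured A kept the call. It was also lost with limma-voom (adjusted p = 0.0502). Ankrd1, a stress gene named after its values were seen and called with the block, held 44.9, 24.5 and 22.2 CPM in injured and 26.0, 6.89 and 7.90 CPM in non-injured libraries (1.17 ± 0.42, edgeR adjusted p = 0.208, and 0.000875 with the block), and was also called without non-injured A and with both letter A libraries left out. Dlg4, which encodes a scaffold protein, had 5.89 ± 1.39 against 2.68 ± 0.48 CPM (1.13 ± 0.33, edgeR adjusted p = 0.126). Runx1 is also expressed in blood cells, and the macrophage marker sums given above were higher in the same libraries; their part in its value was not tested.

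**Figure D3:**
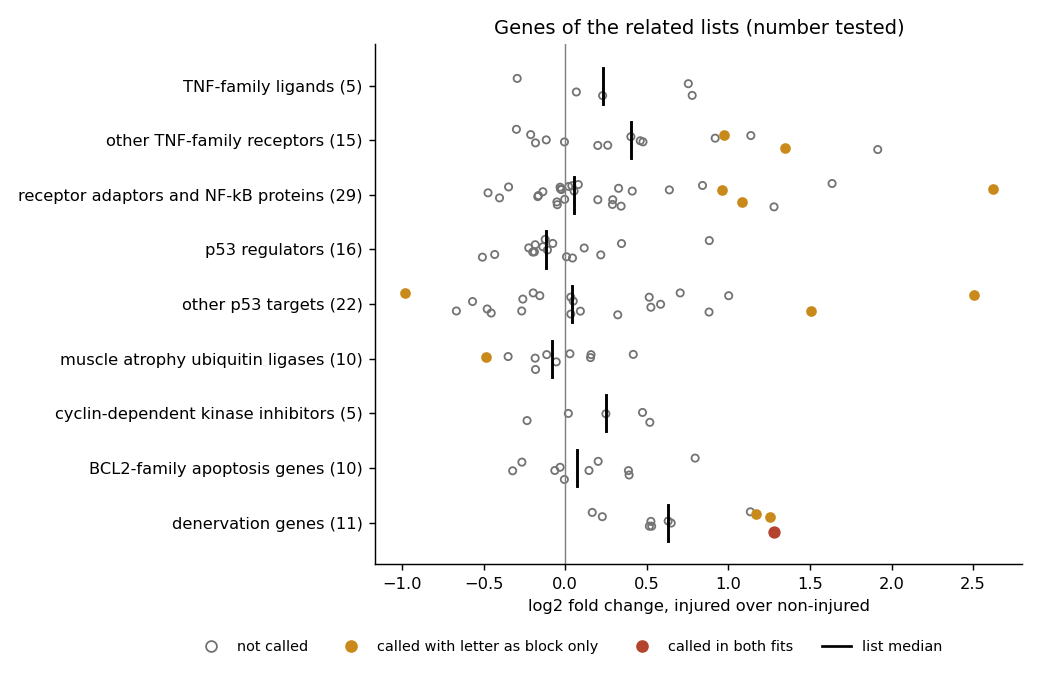
Log2 fold change, injured over non-injured, of each tested gene in the 9 related lists; black bars are list medians and filled points are called at an adjusted p under 0.05. The denervation genes hold the one gene called in both fits, Runx1 at 1.28, and the list median of 0.63 is the highest of the 9. All 9 lists were chosen with earlier results of these data known.

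The genes whose profile over the 6 libraries was most like that of each gene were found by the root mean square difference of log2 CPM, each gene centred on its own mean, among the other genes with a mean of at least 50 counts, 8133 for Bax and 8132 for each of the rest. For Eda2r these were Meg3 (0.091), Grn (0.119) and Rian (0.136), where the median over all genes searched was 0.645. Meg3 and Rian are non-coding RNAs of one imprinted region, and Grn encodes progranulin. Meg3 held 14.7, 12.8 and 16.7 CPM in injured and 8.8, 5.17 and 8.17 CPM in non-injured A, B and C. Non-injured B was the lowest library for Meg3 as for Eda2r, a likeness by which Meg3 was picked.

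For Cdkn1a they were Rhob (0.108), Pik3r1 (0.229) and Kcnq5 (0.247), against a median of 0.789. Pik3r1, a regulatory subunit of PI3-kinase, held 72.9, 128 and 192 CPM in injured and 63.9, 246 and 236 CPM in non-injured libraries, low in letter A of both groups. For Ccng1 they were H2bc4 (0.051), Tef (0.054) and Rragd (0.070), against a median of 0.367. Tef, a circadian transcription factor, held 203, 131 and 161 CPM in injured and 230, 144 and 145 CPM in non-injured libraries, high in letter A of both groups. The genes that varied little had near neighbours among many genes: Rpl39, Nkiras2 and Plekhg3 for Tnfrsf12a; Pramef8, Klhl26 and Pgap2 for Map3k14; and Zfc3h1, Cyp4f13 and Marchf2 for Trp53. Those of Mdm2 were Cacul1, Nedd1 and Prrx1, those of Bax were Cog1, Snrnp70 and Zfp865, and those of Zmat3 were Washc1, Dtx3l and Ttc7. All these neighbours were picked for their likeness, so the highs and lows they share with a gene follow from the choice. Likeness over 6 libraries in 2 groups is a description of these libraries. Among the 9 genes themselves, the closest pair was Trp53 and Bax (0.131).

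**Figure D4:**
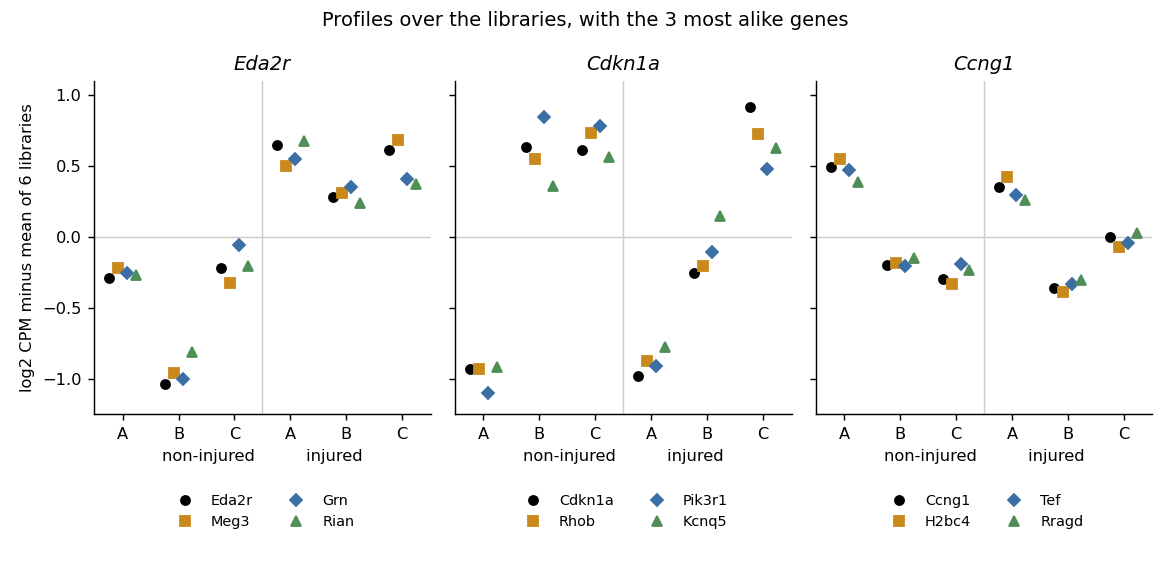
Log2 CPM minus the mean of the 6 libraries for Eda2r, Cdkn1a and Ccng1 and for the 3 genes most like each, in non-injured and injured libraries A, B and C. Eda2r and its neighbours part the groups, whereas Cdkn1a is low and Ccng1 is high in letter A of both groups. The neighbours were picked by their likeness over these same libraries.

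The value of Eda2r was computed in 15 other ways, in which it stayed positive, as the choice of a gene with groups that do not overlap entails, while its call did not hold throughout. The log2 fold change ran from 0.77 without non-injured B to 1.13 without non-injured C. Eda2r was called in 8 of the 15, among them DESeq2, the fit with the letter as block (1.03 ± 0.14 SE) and the fit with both letter A libraries left out. It was not called with limma-voom, with scaling by library totals alone, or when any 1 library other than non-injured A was left out. The other 8 genes were called in none of the alternatives that could be computed. Tnfrsf12a was higher after injury in all 15, and Mdm2 lower in 14 of 15. The alternatives reuse the same libraries, so agreement of sign among them adds no support. Bax was left out by 1 alternative, the filter on a mean of at least 50 counts.

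**Figure D5:**
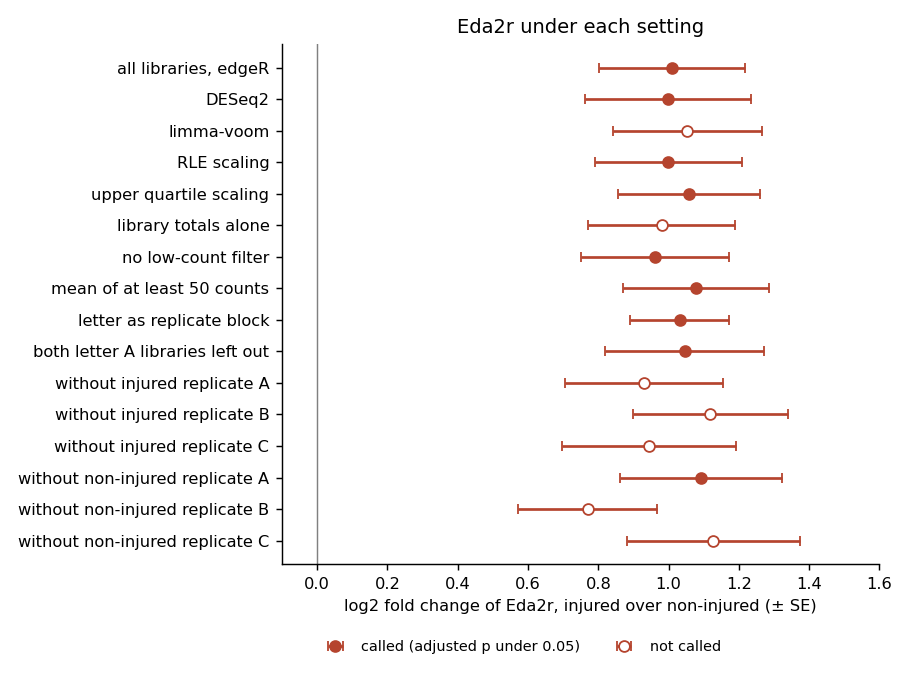
Log2 fold change of Eda2r, injured over non-injured, as reported and in the 15 alternatives, with bars of 1 SE; filled points are called at an adjusted p under 0.05 over all genes tested. All points lie between 0.77 and 1.13, and 7 alternatives are not called.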

How the data were processed

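The values are the authors' estimated counts, by gene and library, and 72.24% to 74.54% of them were whole. Per the submitters' processing notes, the tools were STAR 2.7.8a, Partek and DESeq2 and the builds mm10 and hg19, with no roles stated. What counted the reads, with which annotation and whether by strand is not given in the sources used here. Such fractional values make overlapping or near-identical genes uncertain. Every row reached at least 10 counts in some library.

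Estimated counts were rounded, filtered with filterByExpr, scaled by TMM and tested over 16095 genes with edgeR's quasi-likelihood test (edgeR 4.0.16, limma 3.58.1, DESeq2 1.42.0, R 4.3.3), two-sided, with Benjamini-Hochberg adjustment. Genes with an adjusted p under 0.05 were called. CPM use TMM-scaled totals, and profiles a prior count of 2. SE is the size of the log2 fold change divided by the root of F. The code was tested on simulated data.

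The 9 genes and all lists, markers included, were chosen with earlier results of these data known. Named were the 9 genes, from each list up to 4 called genes and the 2 smallest p among genes averaging 20 counts or more, and set partners of the 9, except 1 item that is not reported here. Fibro-adipogenic progenitor markers (10 tested), endothelial markers (9) and lymphocyte markers (1) had no call.

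Deviations from group means correlated between libraries of the same letter at 0.316 (A), 0.208 (B) and 0.113 (C). Between different letters they ran from -0.232 (injured B with non-injured A) to 0.0643 (injured B with non-injured C). The fit with the letter as block takes letters to pair libraries. That pairing was inferred from these same counts and is not in the labels, and p-values with the block rest on it. Replicates differed by more than sampling noise. Alternatives were other tools, scalings and filters, the letter as block, and libraries left out.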

Additional observations from a re-analysis of the deposited data

How the results depend on the processing

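Of the 9 genes, the count called higher was 1, but 0 with limma-voom and 0 with library totals alone, and 0 to 1 when single libraries were left out. None was called lower in any alternative. Over all genes, 115 were called higher, against 252 with DESeq2, 53 with limma-voom, 516 with the letter as replicate block and 20 to 104 with single libraries left out. Called lower were 5, against 75 with DESeq2, 17 with no filter on low counts, 3 with a mean of at least 50 counts, 427 with the letter as replicate block, 132 with both letter A libraries left out and 0 to 25 with single libraries left out. Among genes of the related lists, 1 was called higher, against 10 with the letter as replicate block, 4 with DESeq2, 4 with both letter A libraries left out, 2 with upper quartile scaling, 0 with limma-voom and 0 to 2 with single libraries left out. Called lower were 0, against 2 with the replicate block and 1 with both letter A libraries left out. The block changed no other call among the 9 genes or these lists. The causes were not tested. No scaling moved the median of all genes by over 0.1. With 3 libraries a group and 6.45 to 8.75 M counts each, genes near 10 counts, the ligands among them, allow only large differences to be seen.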
